A study of Mus musculus with 18 samples.

Results

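The integrated stress response was described here through 10 of its regulators among the 24537 genes of the mouse count table. They are Atf4, Cebpg, Cebpb, Atf3, Ddit3 and Atf5, which encode transcription factors of the basic leucine zipper class, Trib3 and Ppp1r15a, which feed back on the response, and Nupr1 and Sesn2, stress-induced genes that it turns on. The genes were taken by symbol as known members of this pathway, with earlier results of these data known. All 10 had enough counts to be tested.

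The cells were mouse CD8+ T cells, the lymphocytes that kill infected and tumour cells. Naive cells received a CRISPR ribonucleoprotein, were activated through CD3 and CD28, and were then kept overnight with or without lithocholic acid (LCA), a bile acid that gut bacteria make from primary bile acids. Cells labelled KO had a commercial guide kit against Nur77, the nuclear receptor that Nr4a1 encodes, and cells labelled WT had a scrambled guide. The question put was what LCA does to cells with and without Nur77. The 6 groups were KO control, KO LCA10, KO LCA50, WT control, WT LCA10 and WT LCA50, with LCA at 10 or 50 µM, and each held 3 libraries. The labels name no selection of edited cells or single clones, so KO describes a population treated with the guides. Nor do they state that the replicates came from different animals or cultures. The p-values therefore reflect how far these libraries scatter, and that scatter may be technical.

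In this response, kinases that sense unfolded protein, amino acid shortage, heme shortage or double-stranded RNA phosphorylate the initiation factor eIF2. General translation then falls while the mRNA of Atf4 is translated more, through short reading frames in its leader, so its mRNA level reports only part of its control. ATF4 pairs with C/EBP family proteins and turns on genes for amino acid uptake and synthesis and for aminoacyl-tRNA charging, together with genes that later shut the response off. In T cells the pathway is known for its role when amino acids are short.

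ATF4 with a C/EBP partner reads the C/EBP-ATF response element, searched here as TGATGNAA or, on the other strand, TTNCATCA. The cyclic AMP response element, which other factors of the ATF family read, was searched as TGACGTCA, a palindrome. RefSeq promoter windows of GRCm38.p6, from 250 bases before to 50 after the start of a transcript, were found for all 10 genes. The first motif stood in the windows of 3 of the 10, Atf3, Nupr1 and Trib3, and the second in that of Ppp1r15a. Among all 32851 windows, 3.97% held the first motif and 1.79% the second. These 4 stretches are shown because they are the matches in the 10 genes. Each is 30 bases of the gene's own strand with the motif in capitals, and no motif overlapped the other kind. The match lies at bases -110 to -103 from the start in Atf3 (chr1:191183425-191183454, minus strand) and in Nupr1 (chr7:126625562-126625591, minus strand). It lies at bases 15 to 22 in Trib3 (chr2:152344028-152344057, minus strand) and at -12 to -5 in Ppp1r15a (chr7:45526262-45526291, minus strand).
Atf3: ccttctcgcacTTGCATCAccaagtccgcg
Nupr1: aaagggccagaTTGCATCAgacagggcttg
Trib3: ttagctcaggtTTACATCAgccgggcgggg
Ppp1r15a: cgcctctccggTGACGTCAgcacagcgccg
The first motif was also found in 13 of the 33 ATF4 target genes (described further on) that had a window. A match is a run of letters and not a binding site, and genes without one may hold it outside the window. Positions are counted from the RefSeq starts. Those used for Atf3 and Nupr1 lie inside the span that GENCODE gives these genes, and the Trib3 match, although after its RefSeq start, lies before the start that GENCODE gives.

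Libraries held 4113713 to 5945518 counts and 14936 to 17518 genes with a count, and 11651 genes were tested. Levels are given as CPM, counts scaled to the library size after TMM normalization. Nr4a1 itself had 29 to 84 counts in the 18 libraries. Its KO over WT difference was 0.14 ± 0.33 on the log2 scale in control cells (edgeR adjusted p = 0.963). Whole-gene counts cannot reveal an edit in the sequence, so they speak neither for nor against the KO label. The 8 CD8 T cell markers summed to 3699 to 4931 CPM, with all 8 detected in every group. Of 4 markers of helper and regulatory T cells, Cd4 was at 0 in 10 of the 18 libraries, while Foxp3 (41 to 88 counts) and Zbtb7b (1 to 84 counts) were at 0 in none, and these 4 summed to 12.6 to 36.2 CPM. Of the B cell markers, Pax5 was at 0 in 15 libraries and Cd79b (16 to 55 counts) in none. Cd79b fell in KO LCA50 against KO control (-1.07 ± 0.30, edgeR adjusted p = 0.0250). Myeloid markers summed to 10.8 to 25.7 CPM in KO libraries and 39.3 to 75.0 CPM in WT libraries. Of the CD8 markers, Cd8b1 fell with LCA50 in both guide arms, by 0.35 ± 0.08 in KO and by 0.58 ± 0.08 in WT, and Cd3g fell by 0.34 ± 0.09 in WT (edgeR adjusted p = 0.00282, 3.19e-06 and 0.0236 in that order).

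KO LCA50 replicate 1 stood apart from the other libraries. It was the highest of the 18 libraries for all 10 regulators, and also for 13.1% of all tested genes, against 3.41 to 7.21% for each other library. It had the lowest total count of the 18. A background measure, the summed counts of 1470 smell, vomeronasal and trace amine receptor genes, was 164 CPM there, against 47.2 and 93.4 in the other KO LCA50 libraries. The WT LCA50 libraries stood at 121, 139 and 223 and the control and LCA10 libraries of both arms between 50.4 and 113. In WT, background and 50 µM LCA therefore cannot be fully told apart, also where background is used as a covariate. The CD8 marker sum of KO LCA50 replicate 1 was the lowest of the 18 libraries, at 3699 CPM against 4628 and 4591 CPM in the other KO LCA50 libraries. WT LCA50 replicates 2 and 3 were also low, at 4075 and 4103 CPM, where control and LCA10 libraries had 4256 CPM or more. The myeloid sum of KO LCA50 replicate 1, at 25.7 CPM, was the highest of the KO libraries. The part of these values in the results was not tested. For this reason the LCA50 change of each regulator in KO is given with and without KO LCA50 replicate 1.

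With 50 µM LCA, Atf4, Trib3, Nupr1 and Sesn2 rose in both KO and WT cells, and Cebpg rose in KO. By edgeR's quasi-likelihood test with Benjamini-Hochberg adjustment over all tested genes, 5 of 10 regulators rose in KO LCA50 against KO control, where 2.93% of all genes rose and 6.35% moved in either direction. In WT LCA50 against WT control 4 of 10 rose, where 3.66% rose and 8.58% moved either way. No regulator fell in either comparison, where 3.42% of all genes fell in KO and 4.93% in WT. The median log2 fold change of the 10 genes was 0.66 in KO and 0.50 in WT, against 0.00 and 0.01 over all tested genes. Without KO LCA50 replicate 1 the KO median was 0.38, below that of WT, and with receptor background as a covariate the WT median was 0.31. All 3 LCA50 libraries lay above all 3 control libraries for 6 regulators in KO, a pattern that 11.5% of all genes showed, and for 7 in WT, where 13.1% did. The KO count was 3 of 10 without KO LCA50 replicate 1 and 2 of 10, Atf4 and Nupr1, without any 1 of the KO control libraries. In bulk samples, a change in the share of cells of a kind and a change in RNA per cell cannot be told apart.

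**Figure D1:**
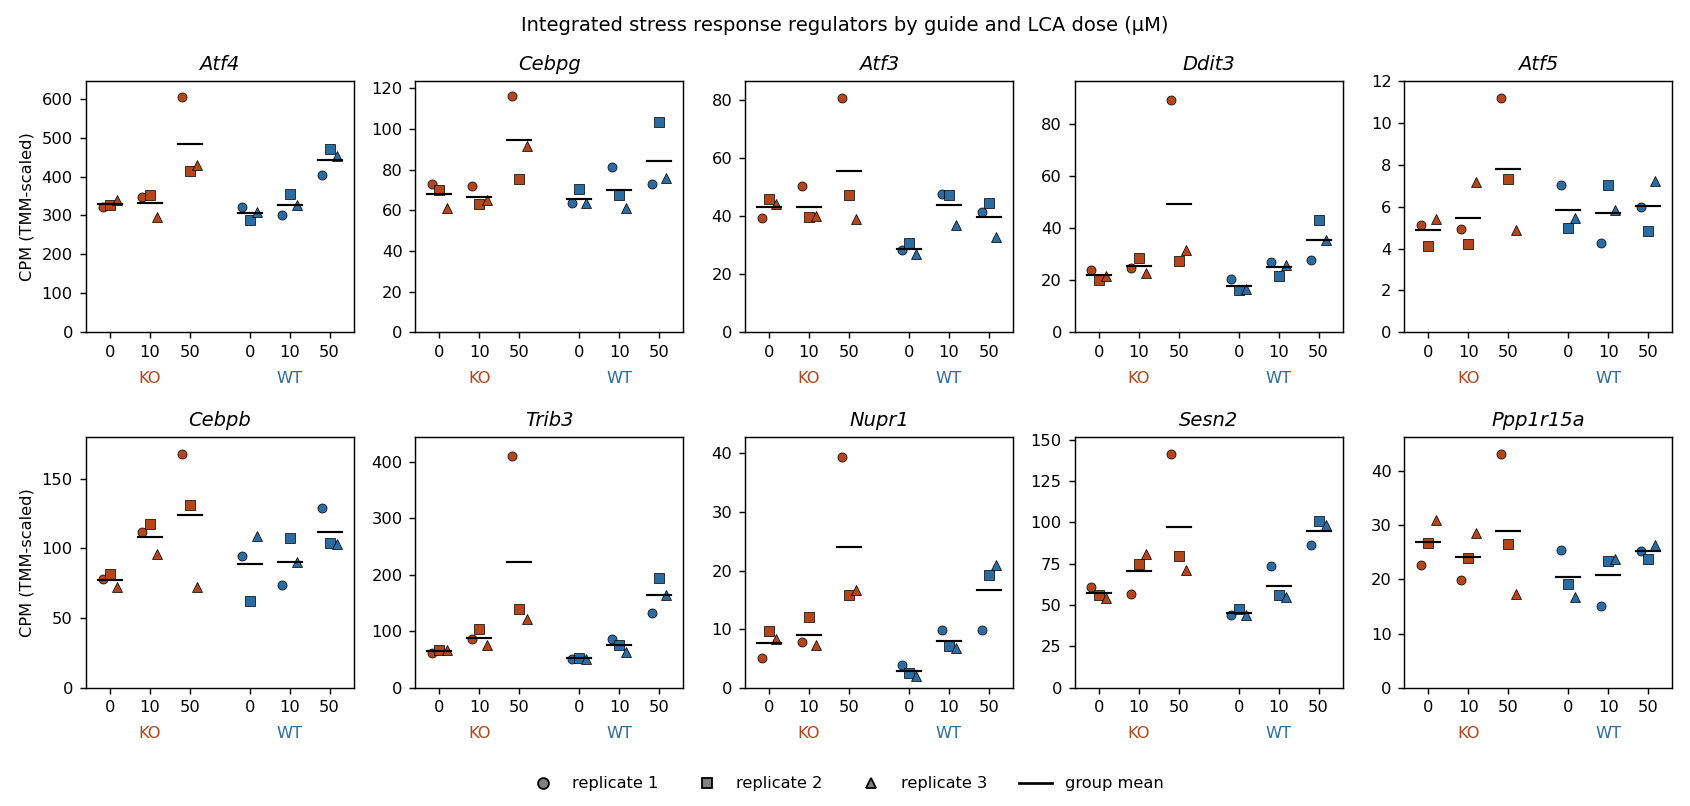
Each panel plots 1 regulator in CPM (linear axis from 0) for every library, with KO in orange and WT in blue and LCA dose in µM along the horizontal axis. Symbols mark replicates and bars the group mean. KO LCA50 replicate 1 (orange circle at 50) is the highest point in all 10 panels.

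Levels compared per length, as CPM per kilobase of the gene's principal transcript, put Atf4 far above the rest in control cells, at 191 ± 4.85 in KO control and 177 ± 10.0 in WT control (SD, n = 3 each). Cebpb followed at 51.4 ± 2.93 and 59.0 ± 15.8, Trib3 at 32.3 ± 1.80 and 25.8 ± 0.59 and Ddit3 at 24.7 ± 2.23 and 20.1 ± 2.71, each in KO control and WT control in that order. Next came Atf3 (21.7 ± 1.72 in KO control, 14.5 ± 0.97 in WT control), Sesn2 (16.4 ± 0.94 and 13.01 ± 0.68) and Cebpg (14.4 ± 1.31 and 14.0 ± 0.83). Ppp1r15a (9.54 ± 1.46 and 7.28 ± 1.58), Nupr1 (9.26 ± 2.78 and 3.43 ± 1.18) and Atf5 (2.70 ± 0.37 and 3.21 ± 0.58) were the lowest. Neighbours whose means lay closer than the sum of their SDs were Ddit3 and Atf3, Sesn2 and Cebpg, and Ppp1r15a and Nupr1 in KO control, and Atf3 and Cebpg, Cebpg and Sesn2, and Nupr1 and Atf5 in WT control.

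Atf4 (chromosome 15, 80255184 to 80257541, plus strand, GENCODE M21 on GRCm38) encodes the central activator of the response. In KO cells it stood at 323, 326 and 339 CPM in control libraries, 348, 352 and 296 CPM with LCA10 and 605, 415 and 429 CPM with LCA50. In WT cells it stood at 322, 288 and 309 CPM in control libraries, 302, 355 and 327 CPM with LCA10 and 404, 470 and 452 CPM with LCA50. In both arms every LCA50 library lay above every other library, and the LCA10 libraries were mixed with the controls. Atf4 mRNA rose 1.47-fold in KO LCA50 (log2 0.55 ± 0.10, edgeR adjusted p = 0.00131) and 1.44-fold in WT LCA50 (0.53 ± 0.10, edgeR adjusted p = 0.00148). It also rose against LCA10, by 0.54 ± 0.10 in KO (edgeR adjusted p = 0.00672) and 0.43 ± 0.10 in WT (edgeR adjusted p = 0.0230). The KO rise over control was 0.36 ± 0.08 without KO LCA50 replicate 1 (edgeR adjusted p = 0.00396). With receptor background as a covariate, the WT rise over control was 0.34 ± 0.11 and not called (edgeR adjusted p = 0.0829). The rise over LCA10 was not called in KO without KO LCA10 replicate 3 (0.46, edgeR adjusted p = 0.0508) or with the compared groups alone (0.54, edgeR adjusted p = 0.122). Nor was it called in WT without WT LCA10 replicate 1 or 3 or WT LCA50 replicate 2 or 3 (0.37 to 0.42, edgeR adjusted p = 0.0957 to 0.144), or with the covariate (0.26 ± 0.10, edgeR adjusted p = 0.352).

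Cebpg (chromosome 7, 35046422 to 35056573, minus strand) encodes a C/EBP protein that pairs with ATF4. Its LCA50 values were 116, 75.5 and 91.7 CPM in KO, against 72.9, 70.0 and 61.0 CPM in KO control. They were 73.0, 103 and 75.9 CPM in WT LCA50, against 63.6, 70.3 and 63.5 CPM in WT control. The groups did not overlap in either arm, though the lowest LCA50 library stood only a few CPM above the highest control library. Cebpg rose in KO (0.47 ± 0.14, edgeR adjusted p = 0.0328), and its WT value was 0.35 ± 0.14 (edgeR adjusted p = 0.111). The KO call was lost without any 1 of KO control replicates 1, 2 and 3 or KO LCA50 replicates 1 and 3, at 0.30 to 0.52 (edgeR adjusted p = 0.0507 to 0.264), with the lowest value, 0.30 ± 0.13, without KO LCA50 replicate 1. It was also lost with the compared groups alone (0.47 ± 0.14, edgeR adjusted p = 0.0763).

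Cebpb (chromosome 2, 167688915 to 167690418, plus strand) encodes another C/EBP partner, which also directs myeloid genes. It stood at 168, 131 and 72.3 CPM in KO LCA50, against 77.8, 81.5 and 72.7 CPM in KO control, so the third LCA50 library was below all 3 controls. In WT LCA50 it stood at 129, 104 and 103 CPM, against 94.8, 62.5 and 109 CPM in WT control, and the groups overlapped. The changes were 0.67 ± 0.27 in KO (edgeR adjusted p = 0.179) and 0.34 ± 0.27 in WT (edgeR adjusted p = 0.505), neither called. Leaving out KO LCA50 replicate 1 gave 0.40 ± 0.26 in KO (edgeR adjusted p = 0.527), and leaving out replicate 3 gave 0.95 ± 0.18, which was called (edgeR adjusted p = 0.00317). Of the 8 myeloid markers, 0 rose or fell in KO LCA50 against KO control and 3 fell in WT LCA50 against WT control, namely Ngp, S100a9 and S100a8. Over all tested genes 3.42% fell in KO and 4.93% in WT. Those 3 averaged only 2.11, 1.35 and 1.01 CPM, with 8, 7 and 7 of the 18 libraries at 0. The myeloid sum was 46.1 to 53.5 CPM in WT LCA50 and 43.6 to 75.0 CPM in WT control. The part of the myeloid markers in the Cebpb values was not tested.

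Atf3 (chromosome 1, 191170296 to 191218039, minus strand) encodes an early stress factor that can repress as well as activate. In KO cells it stood at 39.3, 45.8 and 44.3 CPM in control, 50.3, 39.7 and 39.9 CPM with LCA10 and 80.6, 47.1 and 39.1 CPM with LCA50. In WT cells it stood at 28.5, 30.8 and 26.9 CPM in control, 47.6, 47.2 and 36.9 CPM with LCA10 and 41.4, 44.4 and 32.97 CPM with LCA50. All WT libraries with LCA lay above all WT controls, and the KO groups overlapped. The LCA50 changes were 0.35 ± 0.18 in KO (edgeR adjusted p = 0.287) and 0.47 ± 0.19 in WT (edgeR adjusted p = 0.137), neither called. Without KO LCA50 replicate 1 the KO value was -0.00 ± 0.16, and without KO LCA50 replicate 3 it was 0.55 ± 0.17 and called (edgeR adjusted p = 0.0473).

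Ddit3 (chromosome 10, 127290774 to 127296288, plus strand) encodes CHOP, a C/EBP-related factor known for turning on death genes in prolonged stress. In KO cells it stood at 24.1, 20.2 and 21.6 CPM in control, 24.8, 28.5 and 22.7 CPM with LCA10 and 89.1, 27.3 and 31.4 CPM with LCA50. In WT cells it stood at 20.6, 16.4 and 16.6 CPM in control, 27.1, 21.8 and 25.8 CPM with LCA10 and 27.9, 43.0 and 35.5 CPM with LCA50. LCA50 libraries lay above control libraries in both arms without overlap. The changes were 1.15 ± 0.34 in KO (edgeR adjusted p = 0.0651) and 0.99 ± 0.36 in WT (edgeR adjusted p = 0.113), and neither was called. The KO value was 0.42 ± 0.18 without KO LCA50 replicate 1 (edgeR adjusted p = 0.259). It was called at 1.44 ± 0.28 without replicate 2 (edgeR adjusted p = 0.00362) and at 1.39 ± 0.32 without replicate 3 (edgeR adjusted p = 0.0128). Without both KO LCA50 replicate 1 and WT LCA50 replicate 3, the libraries of highest background, the WT value stayed at 0.99, with a standard error of 0.19, and was called (edgeR adjusted p = 0.000384). With receptor background as a covariate it was 0.29 ± 0.26 and not called (edgeR adjusted p = 0.650). Ddit3 shares 68 exon bases with Mars on the opposite strand, and whether counting used strand is not stated.

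Atf5 (chromosome 7, 44812256 to 44816658, minus strand) encodes a factor that, like ATF4, is controlled largely in translation and is linked to mitochondrial protein quality. It was the lowest of the 10 per length, with 20 to 47 counts a library. It stood at 11.2, 7.33 and 4.91 CPM in KO LCA50, against 5.14, 4.15 and 5.41 CPM in KO control, and at 6.01, 4.82 and 7.23 CPM in WT LCA50, against 7.02, 4.99 and 5.46 CPM in WT control. The groups overlapped in both arms. The changes were 0.65 ± 0.33 in KO (edgeR adjusted p = 0.271) and 0.04 ± 0.33 in WT (edgeR adjusted p = 0.958). The 95% intervals of -0.01 to 1.32 in KO and -0.63 to 0.72 in WT leave room for changes of the size seen for Atf4. The KO value was 0.32 ± 0.36 without KO LCA50 replicate 1 (edgeR adjusted p = 0.749).

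Trib3 (chromosome 2, 152337422 to 152344032, minus strand) encodes a pseudokinase that binds ATF4 and limits its activity. In KO cells it stood at 61.2, 67.5 and 67.6 CPM in control, 85.8, 105 and 75.7 CPM with LCA10 and 410, 139 and 121 CPM with LCA50. In WT cells it stood at 51.2, 53.5 and 51.8 CPM in control, 87.0, 75.1 and 64.1 CPM with LCA10 and 133, 194 and 163 CPM with LCA50. In each arm the 3 doses did not overlap at all, with control lowest and LCA50 highest. Trib3 rose 3.39-fold in KO LCA50 (log2 1.76 ± 0.38, edgeR adjusted p = 0.0153) and 3.14-fold in WT LCA50 (1.65 ± 0.39, edgeR adjusted p = 0.0206). By size of change it ranked 30th of 11651 genes in KO and 90th in WT. Leaving out KO LCA50 replicate 1, the library at 410 CPM, the KO rise was 0.99 ± 0.13 (edgeR adjusted p = 1.75e-06). The KO call was lost without KO control replicate 1, 2 or 3, at 1.71 to 1.78 (edgeR adjusted p = 0.0577 to 0.0640), and with the compared groups alone (1.76 ± 0.60, edgeR adjusted p = 0.248). The WT call was lost without WT control replicate 1, 2 or 3 or WT LCA50 replicate 2 or 3, at 1.50 to 1.66 (edgeR adjusted p = 0.0597 to 0.0808). With receptor background as a covariate the WT value was 1.00 ± 0.36 (edgeR adjusted p = 0.197).

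Ppp1r15a (chromosome 7, 45522916 to 45526268, minus strand) encodes GADD34, which brings a phosphatase to eIF2 and so ends the translation block. It stood at 43.1, 26.5 and 17.3 CPM in KO LCA50, against 22.7, 26.8 and 30.9 CPM in KO control, and at 25.3, 23.7 and 26.4 CPM in WT LCA50, against 25.4, 19.2 and 16.8 CPM in WT control. The KO LCA50 libraries held both its highest and 1 of its lowest values. The changes were 0.09 ± 0.23 in KO (edgeR adjusted p = 0.874) and 0.30 ± 0.24 in WT (edgeR adjusted p = 0.502), with 95% intervals of -0.38 to 0.56 and -0.19 to 0.79. The KO value turned negative without KO LCA50 replicate 1 (-0.30 ± 0.21, edgeR adjusted p = 0.555) and without KO control replicate 1 (-0.01 ± 0.25, edgeR adjusted p = 0.989). Unlike Trib3, the other feedback gene, it had no non-overlapping comparison between doses.

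Nupr1 (chromosome 7, 126623249 to 126630861, minus strand) encodes a small stress-induced nuclear protein. In KO cells it stood at 5.14, 9.62 and 8.28 CPM in control, 7.82, 12.03 and 7.38 CPM with LCA10 and 39.3, 15.8 and 16.7 CPM with LCA50. In WT cells it stood at 3.92, 2.60 and 2.02 CPM in control, 9.86, 7.06 and 6.84 CPM with LCA10 and 9.87, 19.3 and 21 CPM with LCA50. WT controls were the lowest 3 libraries of the 18, and WT LCA50 replicate 1 was level with the highest WT LCA10 library. Nupr1 rose 5.84-fold in WT LCA50 (log2 2.55 ± 0.39, edgeR adjusted p = 6.37e-05), the 14th largest rise of 11651 genes, and 3.07-fold in KO LCA50 (1.62 ± 0.33, edgeR adjusted p = 0.00219). In KO it also rose against LCA10 (1.39 ± 0.33, edgeR adjusted p = 0.0246). Leaving out KO LCA50 replicate 1, the KO rise over control was 1.08 ± 0.30 (edgeR adjusted p = 0.0308). The rise over LCA10 was not called without that library or without KO LCA10 replicate 1 or 3, at 0.84 to 1.29 (edgeR adjusted p = 0.133 to 0.284), nor with the compared groups alone (1.39 ± 0.35, edgeR adjusted p = 0.160). Counts per library were few, from 10 to 165.

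Sesn2 (chromosome 4, 132492032 to 132510501, minus strand) encodes sestrin 2, which senses leucine and restrains the growth kinase complex mTORC1. In KO cells it stood at 60.6, 56.4 and 54.3 CPM in control, 56.5, 74.9 and 81.0 CPM with LCA10 and 141, 79.8 and 71.3 CPM with LCA50. In WT cells it stood at 43.8, 47.9 and 43.9 CPM in control, 73.9, 56.1 and 54.9 CPM with LCA10 and 86.3, 101 and 98.2 CPM with LCA50. The WT doses separated completely, while KO LCA10 and KO LCA50 overlapped. Sesn2 rose 2.10-fold in WT LCA50 (log2 1.07 ± 0.20, edgeR adjusted p = 0.00235) and 1.70-fold in KO LCA50 (0.76 ± 0.20, edgeR adjusted p = 0.0265). The WT call held without each WT control or WT LCA50 library in turn. The KO call was lost without KO LCA50 replicate 1 (0.40 ± 0.13, edgeR adjusted p = 0.0866) and without KO control replicate 1, 2 or 3 (0.73 to 0.80, edgeR adjusted p = 0.0582 to 0.109), and with the compared groups alone (0.76 ± 0.26, edgeR adjusted p = 0.191).

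**Figure D2:**
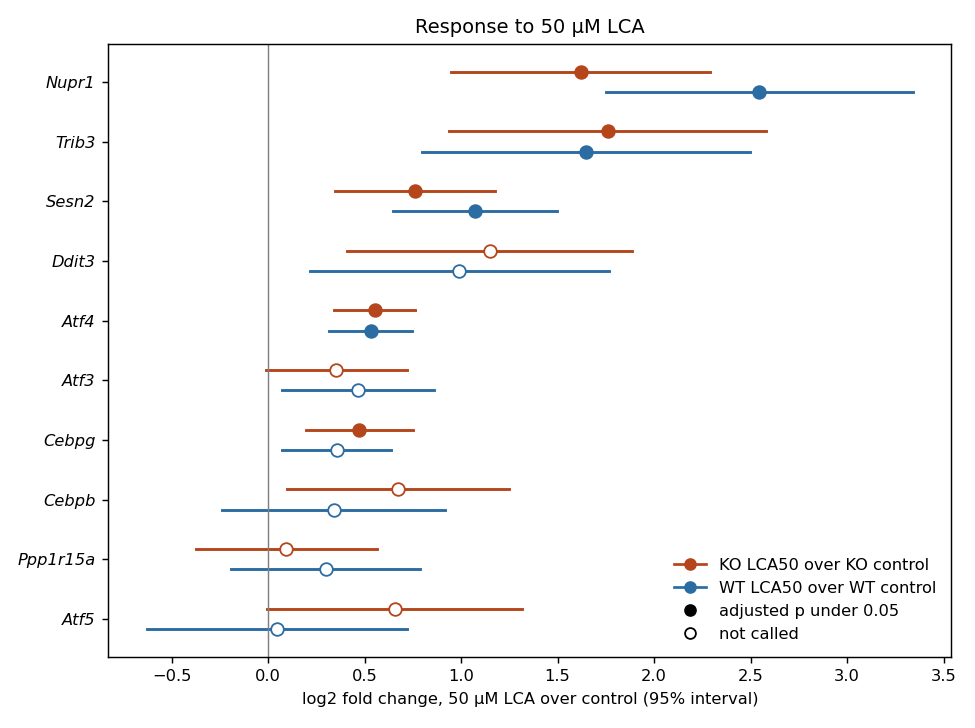
Points are the log2 fold change of each regulator at 50 µM LCA over control, KO in orange above WT in blue, with 95% intervals from edgeR. Filled points have an adjusted p under 0.05. All 20 points lie above 0, and the intervals of Nupr1, Trib3, Sesn2, Ddit3, Atf4 and Cebpg exclude 0 in both arms.

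**Figure D3:**
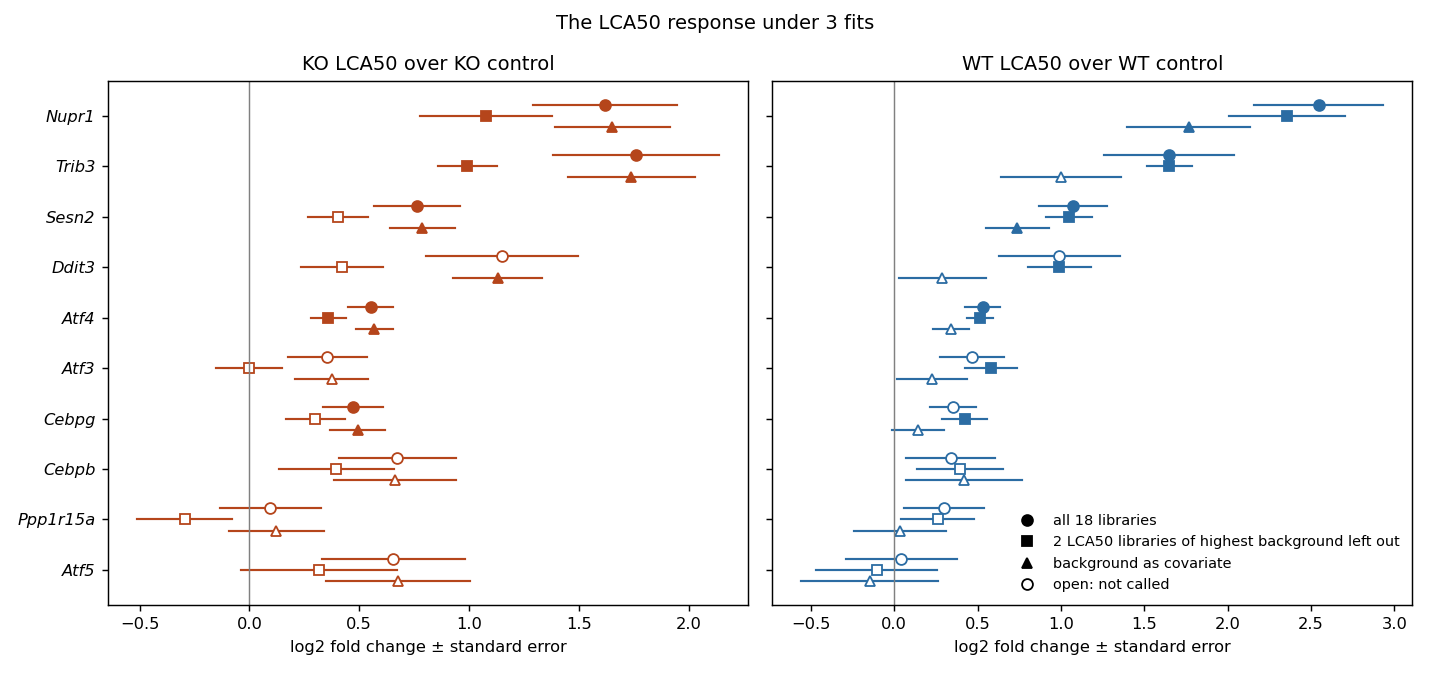
The same changes with standard errors under 3 fits, KO on the left and WT on the right. Circles use all 18 libraries, squares leave out KO LCA50 replicate 1 and WT LCA50 replicate 3, and triangles add receptor background as a covariate, with open symbols not called. In KO the squares for Trib3 and Sesn2 fall to 0.99 and 0.40, and in WT the triangles for Trib3 and Atf4 fall to 1.00 and 0.34.

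Leaving out both LCA50 libraries of highest background gave 3 called regulators in KO (Atf4, Trib3 and Nupr1) and 7 in WT, where Ddit3, Atf3 and Cebpg joined the other 4. That fit called 428 of all genes in KO and 883 in WT. With background as a covariate, Ddit3 was called in KO (1.13 ± 0.20, edgeR adjusted p = 0.000299), while in WT only Nupr1 and Sesn2 kept their calls. The covariate fit called 998 of all genes in KO and 339 in WT. In WT every LCA50 library had a higher background than every control library, so this fit cannot fully separate background from dose there. Nupr1 was called in both arms in each of these fits, and so was Trib3 except in WT with the covariate.

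At 10 µM LCA no regulator was called in either arm by edgeR, where 0.326% of all genes moved in KO and 0.386% in WT. At an unadjusted p under 0.05 there were 0 of 10 regulators in KO and 3 in WT. Of all 11651 tested genes, 910 in KO and 909 in WT passed that threshold. The median log2 fold change was 0.18 in KO and 0.27 in WT. In WT, all LCA10 libraries lay above all controls for 5 regulators, a pattern shown by 6.81% of all genes, and in KO for 2, where 7.75% showed it. The 5 in WT were Nupr1 (1.47 ± 0.41, edgeR adjusted p = 0.153), Atf3 (0.61 ± 0.19, edgeR adjusted p = 0.223), Trib3 (0.53 ± 0.40), Ddit3 (0.48 ± 0.37) and Sesn2 (0.45 ± 0.21). The 2 in KO were Cebpb (0.49 ± 0.27) and Trib3 (0.44 ± 0.39). DESeq2 called Nupr1 in WT LCA10 (1.48 ± 0.40, DESeq2 adjusted p = 0.0424) and 0 regulators in KO LCA10. Fitted on the compared groups alone, Nupr1, Atf3 and Trib3 were called in WT LCA10 (edgeR adjusted p = 0.0238, 0.0198 and 0.00921) and Cebpb in KO LCA10 (0.48 ± 0.10, edgeR adjusted p = 0.00941). Across the 3 doses, group means increased from control through LCA10 to LCA50 for 8 of 10 regulators in each arm, an order that 22.6% of tested genes had in KO and 23.4% in WT. Cebpg and Ppp1r15a did not follow it in KO, nor Atf5 and Atf3 in WT.

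Between LCA50 and LCA10, edgeR called 2 regulators higher in KO, Atf4 and Nupr1, where 1.38% of all genes moved and 0.463% rose, and 1 in WT, Atf4, where 2.27% moved and 0.798% rose. All LCA50 libraries lay above all LCA10 libraries for 4 regulators in KO (Atf4, Cebpg, Trib3 and Nupr1), as for 7.13% of all genes. In WT they did for 5 (Atf4, Ddit3, Trib3, Nupr1 and Sesn2), as for 10.5% of all genes. Several others were called once a library was left out. Without KO LCA50 replicate 1, Trib3 rose by 0.56 ± 0.13 in KO (edgeR adjusted p = 0.0304), and without KO LCA50 replicate 3 by 1.62 ± 0.34 (edgeR adjusted p = 0.0340). Cebpg (0.63 ± 0.14, edgeR adjusted p = 0.00801) and Ddit3 (1.24 ± 0.28, edgeR adjusted p = 0.0233) were called in KO without KO LCA50 replicate 2. Sesn2 was called in KO without KO LCA50 replicate 3 (0.63 ± 0.17, edgeR adjusted p = 0.0488), and Nupr1 in WT without WT LCA50 replicate 1 (1.34 ± 0.33, edgeR adjusted p = 0.0183).

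No regulator differed between KO and WT at the same dose by edgeR's quasi-likelihood test. In control cells 0.627% of all genes did, with LCA10 0.661% and with LCA50 1.94%. At an unadjusted p under 0.05 there were 2 of 10 regulators in control cells, 0 with LCA10 and 1 with LCA50. Of all 11651 tested genes, 1013, 978 and 1571 passed that threshold, in the same order. The widest gap was that of Nupr1 in control cells, at 5.14, 9.62 and 8.28 CPM in KO, against 3.92, 2.60 and 2.02 CPM in WT (1.43 ± 0.41, edgeR adjusted p = 0.141). Atf3 came next, with all KO controls above all WT controls (0.59 ± 0.19, edgeR adjusted p = 0.209). Nupr1 was called there by DESeq2 (1.44 ± 0.40, DESeq2 adjusted p = 0.0453), and both genes were called when the 2 groups were fitted alone (edgeR adjusted p = 0.0214 for Nupr1 and 0.0113 for Atf3). Trib3 (0.33 ± 0.41), Sesn2 (0.34 ± 0.21) and Atf4 (0.10 ± 0.10), none of them called, also had no overlap between the arms in control cells. For Atf4 the lowest KO control stood at 323 CPM and the highest WT control at 322 CPM. That makes 5 of 10 regulators higher in KO control without overlap, where 8.35% of all genes were. With LCA10 and with LCA50 the arms overlapped for all 10, where 7.59% and 8.37% of all genes were higher in KO without overlap. With LCA50, Atf3 was called at 0.68 ± 0.18 without KO LCA50 replicate 3 (edgeR adjusted p = 0.0385). With receptor background as a covariate, Nupr1 (1.03 ± 0.28, edgeR adjusted p = 0.0370) and Ddit3 (0.85 ± 0.22, edgeR adjusted p = 0.0269) were called higher in KO LCA50 than in WT LCA50. Cell markers differed too in control cells. Of the 8 CD8 T cell markers 1 was lower in KO control than in WT control, Cd8a (-0.25 ± 0.06, edgeR adjusted p = 0.0418). Of the 8 myeloid markers 3 were lower in KO control than in WT control, namely Lyz2, S100a8 and Ngp, with summed levels of 12.3 to 17.2 CPM in KO control and 43.6 to 75.0 CPM in WT control and with S100a8 at 0 in all KO controls. Red cell and platelet markers summed to 0.377 to 6.09 CPM in KO control and 31.6 to 57.3 CPM in WT control, with the 4 globin genes at 0 in KO controls. Their part in the values of the regulators was not tested.

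The response to LCA itself was compared between arms as the KO response minus the WT response. Of all tested genes 0 were called at LCA50 and 0 at LCA10 by edgeR's quasi-likelihood test, with 729 and 382 genes at an unadjusted p under 0.05. Among the regulators, the difference closest to a call at LCA50 was that of Nupr1, whose rise was smaller in KO (-0.93 ± 0.52, edgeR adjusted p = 0.816), with a 95% interval of -1.99 to 0.13. For Atf4 the difference was 0.02 ± 0.15, with an interval of -0.28 to 0.32, and for Sesn2 it was -0.31 ± 0.28, with an interval of -0.90 to 0.28. For Trib3 and Ddit3 the intervals were wider, from -1.06 to 1.29 and from -0.92 to 1.23, and for Atf5 and Cebpb they ran from -0.33 to 1.56 and from -0.48 to 1.15. At LCA10 Atf3 (-0.61 ± 0.26) and Nupr1 (-1.24 ± 0.55) were the 2 regulators under 0.05 before adjustment, and both had an edgeR adjusted p of 0.9997. Equal responses in both arms are not shown for any regulator by these values.

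Across the 18 libraries the regulators varied together to different degrees. On the log2 CPM scale Trib3 had Pearson correlations of 0.94 with Atf4, 0.94 with Ddit3 and 0.94 with Sesn2, and of 0.82, 0.91 and 0.83 once group means were removed. At the other end Cebpg and Ppp1r15a had 0.19. These values describe 18 libraries that share KO LCA50 replicate 1 as their highest point, and library depth and background are common to each pair. Among 9412 genes ranked by correlation with Trib3, the nearest were Cth, which makes cysteine (0.98), Aars, which charges alanine tRNA (0.98), and Eif3c, a subunit of an initiation factor (0.96). These were 0.96, 0.95 and 0.91 without KO LCA50 replicate 1 and WT LCA50 replicate 2, the libraries farthest from the median of Trib3. Nearest to Atf4 were Adpgk, a glycolytic kinase (0.95), Cth (0.94) and Cish, an inhibitor of cytokine signalling (0.93), at 0.94, 0.87 and 0.84 without the same 2 libraries. Nearest to Ddit3 were Nfe2l1, a stress transcription factor (0.94), Hspa9, a mitochondrial chaperone (0.93), and Eif1, an initiation factor (0.93), at 0.76, 0.75 and 0.79 without them.

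Other genes of the pathway were grouped by role. The 37 tested ATF4 effector targets were mostly genes for amino acid transport, synthesis and tRNA charging. Others in the list, such as Stc2 and Jdp2, do not have these roles. Of the 37, 23 rose and 0 fell in KO LCA50, with a median of 0.40. In WT LCA50 29 rose and 0 fell, with a median of 0.55. Over all tested genes 2.93% rose in KO and 3.66% in WT. The 22 that rose in both arms were 95.7% of those called in KO and 75.9% of those called in WT. The smallest p-values belonged to Slc7a5 and Slc3a2, the 2 chains of a leucine transporter, and to Asns, which makes asparagine. Slc7a5 rose by 0.50 ± 0.07 in KO LCA50 and 0.76 ± 0.07 in WT LCA50, Slc3a2 by 0.58 ± 0.07 and 0.73 ± 0.07 and Asns by 0.62 ± 0.09 and 0.89 ± 0.09, in the same order of arms. KO LCA50 replicate 1 was the highest library for 28 of the 37. The KO count was 17 without it and 15 without KO control replicate 1, and with background as a covariate the WT count was 14. At LCA10 Slc7a5 was called in KO (0.32 ± 0.07, edgeR adjusted p = 0.0141) and 0 targets were called in WT. Over all tested genes 0.326% were called in KO LCA10 and 0.386% in WT LCA10. Against WT control, KO control had 3 targets higher, Stc2 (0.65 ± 0.16), Jdp2 (0.88 ± 0.18) and Asns (0.44 ± 0.09), where 0.627% of all genes were called. With LCA10 1 target was called higher in KO than in WT, Stc2, and with LCA50 1, Jdp2. There 0.661% and 1.94% of all genes were called. These counts between the arms were looked up after the values were seen.

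Of 22 genes for the kinases that start the response and for the eIF2 machinery, 0 were called in KO LCA50 against KO control by edgeR's quasi-likelihood test, and 1 in WT LCA50 against WT control, where 6.35% and 8.58% of all genes were. That gene was Eif2ak3, which encodes the kinase PERK of the endoplasmic reticulum, and it fell by 0.51 ± 0.13 (edgeR adjusted p = 0.00948). Its mean was 55.9 ± 7.20 CPM in WT LCA50 and 79.3 ± 8.28 CPM in WT control (SD, n = 3 each), and its KO change was -0.25 ± 0.12 (edgeR adjusted p = 0.270). The WT call was lost without WT control replicate 2 or WT LCA50 replicate 2 (-0.45 and -0.41, edgeR adjusted p = 0.0554 and 0.0934) and with the covariate (-0.38, edgeR adjusted p = 0.196). Eif2ak2, which encodes the kinase PKR that senses double-stranded RNA, was called lower in LCA50 than in LCA10 in both arms, looked up after the values were seen. It fell by 0.52 ± 0.14 in KO (edgeR adjusted p = 0.0453) and by 0.86 ± 0.14 in WT (edgeR adjusted p = 0.000375). Its means were 41.2, 46.7 and 32.6 CPM in KO control, LCA10 and LCA50, and 36.6, 51.6 and 28.4 CPM in WT control, LCA10 and LCA50. The most abundant genes of the list, Ppp1ca (-0.03 ± 0.06) and Eif2s1 (-0.02 ± 0.07), had small values in KO. The medians of the 22 were -0.05 in KO LCA50 and -0.06 in WT LCA50 against control.

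Of 18 tested targets of the IRE1 and ATF6 arms of the unfolded protein response, which run beside PERK, 1 rose in KO LCA50 and 2 in WT LCA50, where 2.93% and 3.66% of all genes rose. Herpud1, a gene of endoplasmic reticulum degradation that ATF4 can also drive, rose by 0.42 ± 0.09 in KO and 0.49 ± 0.09 in WT, and Xbp1, the IRE1 substrate, rose by 0.20 ± 0.06 in WT (edgeR adjusted p = 0.0454) and had 0.16 ± 0.06 in KO (edgeR adjusted p = 0.119). The Xbp1 call was lost without any 1 of the 6 WT control and WT LCA50 libraries, at 0.15 to 0.22 (edgeR adjusted p = 0.0598 to 0.209), and with the covariate (0.21 ± 0.08, edgeR adjusted p = 0.128). The main chaperone of the compartment, Hspa5, had -0.03 ± 0.06 in KO and -0.01 ± 0.06 in WT. Medians were 0.08 in KO and -0.00 in WT.

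Of 15 tested relatives of the regulators, 2 rose and 0 fell in KO LCA50, and 1 rose and 2 fell in WT LCA50, where 2.93% of all genes rose in KO and 3.66% rose and 4.93% fell in WT. Jdp2, a basic leucine zipper factor that is also in the target list, rose by 0.84 ± 0.16 in KO and 0.73 ± 0.18 in WT, and Atf1, a factor that reads the cyclic AMP response element, rose by 0.42 ± 0.12 in KO. Batf, a basic leucine zipper factor of activated T cells, fell by 0.62 ± 0.15 in WT and had -0.15 ± 0.14 in KO. Sesn1, another sestrin gene, fell by 0.42 ± 0.14 in WT (edgeR adjusted p = 0.0483), where Sesn2 rose. Several of these calls were lost when a single library was left out. Jdp2 in WT was lost without WT control replicate 2 or WT LCA50 replicate 3 (0.50 and 0.65, edgeR adjusted p = 0.0874 and 0.0556), and Batf without WT LCA50 replicate 3 (-0.51, edgeR adjusted p = 0.0598). Atf1 was lost without KO control replicate 1 or 2 or KO LCA50 replicate 1 or 3 (0.29 to 0.43, edgeR adjusted p = 0.0559 to 0.190) and with the compared groups alone (0.42 ± 0.13, edgeR adjusted p = 0.0911). Sesn1 was lost without WT control replicate 2 or 3 or any WT LCA50 library (-0.46 to -0.35, edgeR adjusted p = 0.0718 to 0.187). With receptor background as a covariate the WT values of Jdp2, Batf and Sesn1 were 0.55, -0.48 and -0.32, none of them called (edgeR adjusted p = 0.166, 0.139 and 0.348). Of 11 genes through which sestrins act on mTORC1, edgeR called 0 in either arm. Over all tested genes 6.35% were called in KO LCA50 and 8.58% in WT LCA50, so 0 of 11 is near that share. The abundant members Sec13 (-0.00 ± 0.08 in KO, -0.04 ± 0.08 in WT) and Seh1l (-0.05 ± 0.08 in both) had small values.

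Of 9 mitochondrial chaperones and proteases, the class tied to Atf5, 2 rose in KO LCA50 and 1 in WT LCA50, where 2.93% and 3.66% of all genes rose. Hspa9 rose by 0.32 ± 0.09 in KO and 0.35 ± 0.09 in WT, and the protease gene Lonp1 rose by 0.67 ± 0.16 in KO. Leaving out KO LCA50 replicate 1 gave 0.37 ± 0.08 for Lonp1 (edgeR adjusted p = 0.00445) and 0.13 ± 0.07 for Hspa9, which was then not called (edgeR adjusted p = 0.361). The Lonp1 call was lost without KO control replicate 1 or 2 (0.64 and 0.65, edgeR adjusted p = 0.0691 and 0.0777) and the Hspa9 call in KO without any KO control library (0.30 to 0.33, edgeR adjusted p = 0.0981 to 0.126). In WT the Hspa9 call was lost without WT control replicate 1 or 3 or WT LCA50 replicate 2 or 3 (0.29 to 0.34, edgeR adjusted p = 0.0680 to 0.113) and with the covariate (0.11 ± 0.08, edgeR adjusted p = 0.559). With the compared groups alone neither gene was called in KO (edgeR adjusted p = 0.238 for Hspa9 and 0.236 for Lonp1). Of 7 genes linked to death downstream of CHOP, 1 was called in each arm, where 6.35% of all genes were called in KO and 8.58% in WT. The called gene was Bcl2, which protects cells from death and which CHOP is known to lower. Bcl2 rose by 0.39 ± 0.08 in KO and 0.49 ± 0.08 in WT. The KO rise was 0.25 ± 0.07 without KO LCA50 replicate 1 (edgeR adjusted p = 0.0405). The list's other members included Bcl2l11, which promotes death, at 0.40 ± 0.14 in KO (edgeR adjusted p = 0.102) and 0.41 ± 0.14 in WT (edgeR adjusted p = 0.0786). Pmaip1, also in the list and not called, had lower means with LCA50. They were 27.9 CPM in KO LCA50 against 33.8 in KO control, and 24.8 in WT LCA50 against 31.8 in WT control. The medians of the 7 genes were 0.30 in KO and -0.06 in WT.

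**Figure D4:**
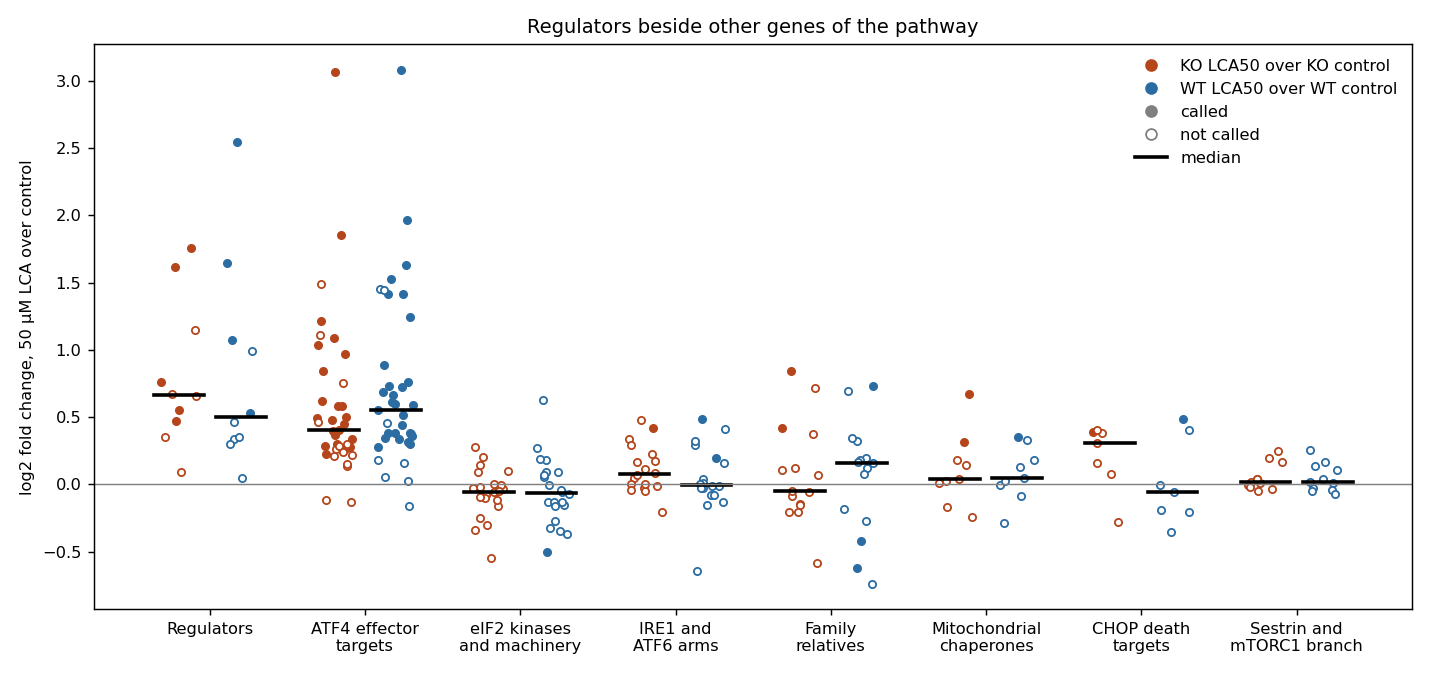
Points are log2 fold changes at 50 µM LCA over control for each tested gene of 8 groups, KO in orange left of WT in blue, with filled points called at an adjusted p under 0.05 and bars at group medians. The regulators (medians 0.66 and 0.50) and the ATF4 targets (0.40 and 0.55) stand above 0, while the eIF2 machinery lies near -0.05 and the sestrin branch near 0.02.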

How the data were processed

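RNA was prepared from 18 libraries of mouse CD8+ T cells with an ultra-low input cDNA kit, per the labels' protocols. The authors deposited raw counts for 24537 gene symbols, as whole numbers with no normalization. The submitters' processing notes name STAR, HOMER and DESeq2 and the builds GRCm38 and mm10, and their versions, settings and use of strand are not given in the sources used here. Column names matched sample descriptions, and groups came from the genotype and treatment labels.

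filterByExpr of edgeR 4.0.16 (R 4.3.3), given the groups, kept 11651 genes, and libraries were scaled by TMM. One model held a mean for each of 6 groups, with 11 contrasts tested by quasi-likelihood F tests with Benjamini-Hochberg adjustment over all tested genes, called under 0.05. Standard errors were obtained by dividing the size of a log2 fold change by the root of its F statistic. The biological coefficient of variation was 0.0984. Within a group, squared differences of 2 libraries averaged 2.41 to 8.19 times what counting error gives, so no library was treated as a copy of another. Levels per length use GENCODE M21 transcripts. The code was tested on simulated data. Alternatives were DESeq2 1.42.0 (Wald test), its size factors, other filters (none, or a mean CPM of at least 5), a fit on only the compared groups, a block for the replicate number, leaving out each library, the library of highest receptor background left out of each LCA50 group, that background as a covariate, and an adjusted p under 0.01.

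Exon overlaps were found on the opposite strand for Atf5 (82 bases, with Nup62 and Il4i1), Cebpb (312 bases, Tmem189), Ppp1r15a (12 bases, Tulp2), Ddit3 (68 bases with Mars and 13 with Gm4189) and Cebpg (4 bases, Gm45095), and on the same strand for Cebpg (73 bases, Gm44836), so their counts may hold reads of those genes. The 10 regulators and the other gene lists were chosen with earlier results of these data known. All 10 regulators were named. Of each other list, up to 3 called genes with the smallest p in each direction in the LCA50 comparisons were named, or, in lists with no call, the 2 of highest CPM. Eif2ak3's KO value, Eif2ak2, Hspa5, Bcl2l11, Pmaip1, Stc2 and cell markers were named outside this rule, after their values were seen. The 3 genes most correlated with Atf4, Ddit3 and Trib3 were taken among those averaging 5 CPM or more.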

Additional observations from a re-analysis of the deposited data

How the results depend on the processing

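Over the alternatives, 1660 values of single regulators were recomputed. Of these 1572 stayed on the same side of the threshold, 36 lost a call, 52 gained one and 0 reversed, while 102 that were called in neither fit changed sign. Fitting only the compared groups or leaving out libraries changes how many samples set the spread, and for the other shifts the cause was not tested. The number of all genes called in KO LCA50 against KO control was 740, 428 without the LCA50 libraries of highest background, 372 with the compared groups alone and 384 to 814 with single libraries left out (435 without KO LCA50 replicate 1, 384 to 475 without a KO control library). In WT LCA50 against WT control it was 1000, 339 with background as a covariate and 522 to 1027 with single libraries left out (522 and 533 without WT LCA50 replicates 3 and 2, 664 without WT control replicate 3). In WT it was 883 without the LCA50 libraries of highest background and 1198 with the compared groups alone. In KO it was 998 with background as a covariate.

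The count of called regulators in KO LCA50 against KO control was 5 of 10, and it was 2 at an adjusted p under 0.01, 3 without the high-background libraries, 2 with the compared groups alone and 2 to 7 with single libraries left out. In WT LCA50 against WT control it was 4, and 7 without the high-background libraries, 7 with the compared groups alone, 2 with the covariate and 3 to 4 with single libraries left out. For KO LCA50 against KO LCA10 it was 2, and 1 under 0.01, 0 with the compared groups alone, 4 by DESeq2, 4 with no filter and 0 to 4 with single libraries left out. For WT LCA50 against WT LCA10 it was 1, and 0 under 0.01, 3 without the high-background libraries, 4 with the compared groups alone, 3 with no filter, 0 with the covariate and 0 to 2 with single libraries left out. For WT LCA10 against WT control it was 0, and 3 without the high-background libraries, 3 with the compared groups alone, 1 by DESeq2, 2 with no filter and 1 with the covariate. For KO LCA10 against KO control it was 0, and 1 with the compared groups alone. For KO control against WT control it was 0, and 2 without the high-background libraries, 2 with the compared groups alone, 1 by DESeq2 and 2 with no filter. For KO LCA50 against WT LCA50 it was 0, and 1 with no filter, 2 with the covariate and 0 to 1 with single libraries left out. For comparisons other than LCA50 against control, the counts of all genes called under the alternative fits are not given, here or above. Shifts in those counts of regulators therefore cannot be set beside the share of all genes. ATF4 targets higher in KO LCA50 numbered 23, and 13 with the compared groups alone.

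Libraries with the same replicate number were no more alike than others. Deviations from group means correlated at a median of 0.00 over 45 pairs with the same number (-0.41 to 0.30). The median was 0.01 over 90 pairs with different numbers (-0.39 to 0.44). This check cannot show whether libraries shared an animal or culture. With the number as a block, the counts of called regulators were 5 in KO LCA50 and 4 in WT LCA50, and 684 and 930 of all genes were called. Atf5 had 20 to 47 counts a library and Nupr1 10 to 165, which limits their precision.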
